A study of Saccharomyces cerevisiae with 12 samples.

Results

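The kynurenine pathway makes NAD from tryptophan, and its 6 genes were followed here in yeast cultures treated with a steroidal glycoalkaloid of tomato, its sugar-free aglycone or a sterol synthesis inhibitor. The genes were BNA2, BNA7, BNA4, BNA5, BNA1 and BNA6, chosen by gene symbol, and each had exactly 1 probe set among the 5656 genes that the array named singly. RNA from 12 cultures of Saccharomyces cerevisiae S288C had been hybridised to Affymetrix arrays, 1 array per culture and 3 arrays per group. Cultures were diluted to an optical density of 0.1 and grown for 1 h at 30 °C before the compound was added, and were collected 5 h later. The groups received tomatidine at 0.625 ppm, tomatine at 13.9 ppm, fenpropimorph at 0.313 ppm or the solvent dimethylformamide alone (control), and the solvent was common to all 4. Cultures were grown on 3 days, each day with all 4 groups, and arrays carry the group's name and the day's number. Tomatine is tomatidine with a chain of sugars attached, and fenpropimorph, a fungicide of the morpholine class, acts on ergosterol synthesis at ERG24 and ERG2. Doses and groups were those of the sample titles. Another label field gave 15 uM tomatidine for every culture, control included, and was not used. The compounds were given at different doses, so differences between them are differences between these cultures at these doses.

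NAD carries electrons in metabolism and is consumed by enzymes such as the sirtuin deacetylases. Yeast makes it anew from tryptophan, in steps encoded by the BNA genes, or recycles nicotinic acid and nicotinamide by salvage. BNA2 opens the ring of tryptophan, BNA7 removes the formyl group, BNA4 hydroxylates kynurenine, BNA5 cleaves off alanine, BNA1 opens the second ring, and BNA6 joins the product, quinolinic acid, to ribose phosphate. The steps of BNA2, BNA4 and BNA1 use molecular oxygen. In yeast the NAD-dependent deacetylase HST1, with SUM1 and RFM1, is known to repress BNA genes, and the factor BAS1 is known to activate them.

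Signals are probe set intensities on a linear scale, and log2 differences were taken from 1 linear model over the 12 arrays, with 9275 probe sets tested. Array medians were 77.2 to 78.6. Precision depends on the number of arrays, 3 a group, and on the spread of each probe set. All 4 markers of alpha cells, the mating type of S288C, had signals between 373 and 6122, and the 7 markers of a cells had signals between 5.99 and 110.4. The summed alpha-cell signal was 8299.6 to 9095 with tomatidine, 11346 to 11739 with tomatine, 4882 to 5892 with fenpropimorph and 11143 to 11255 in control. No defining alpha-cell marker was at 0, and 2 of 4 fell with tomatidine, 0 of 4 changed with tomatine and 4 of 4 fell with fenpropimorph. Of the 7 a-cell markers, 0 changed with tomatidine or tomatine, and 1 rose and 0 fell with fenpropimorph (highest log2 difference 0.39). The log2 ratio of the 3′ over the 5′ probe set of the array control gene SPT15 was 1.49 to 2.02 with tomatidine, 2.20 to 2.27 with tomatine, 2.26 to 2.41 with fenpropimorph and 2.21 to 2.53 in control. The same ratio of ACT1 was 0.38 to 0.61 with tomatidine, 0.26 to 0.38 with tomatine, 0.29 to 0.47 with fenpropimorph and 0.33 to 0.38 in control, so that with tomatidine the mean ratio was lower for SPT15 and higher for ACT1 than in control. The part of these differences in the results below was not tested. Signal in a bulk culture cannot tell fewer transcripts per cell from fewer expressing cells. The replicates came from independent days, and whether the 4 cultures of a day shared an overnight culture is not given in the sources used here.

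BNA2, BNA4 and BNA6 were lower with both tomato compounds than in control, and with fenpropimorph BNA4 was lower and BNA2 higher. With tomatidine 3 of the 6 genes fell and 0 rose, against 1.91% of all probe sets called lower and 2.53% called higher (4.44% in either direction). With tomatine 3 fell and 0 rose, against 1.77% called lower and 2.59% called higher (4.36% in either direction). With fenpropimorph 1 fell and 1 rose, against 16.9% called lower and 13.4% called higher (30.3% in either direction), so that the share of members called lay near that of all probe sets. The median log2 difference of the 6 genes was -0.33 with tomatidine, -0.48 with tomatine and -0.18 with fenpropimorph, beside -0.02, -0.01 and -0.07 for all probe sets. Across the 4 groups together 4 of the 6 genes differed, with BNA7 (adjusted p = 0.129) and BNA5 (adjusted p = 0.113) the exceptions, against 37.2% of all probe sets. The members were chosen with earlier results of these data known, so these counts and shares do not test whether the pathway stands out. All comparisons with control share the same 3 control arrays. The tomatidine count of 3 was 0 without tomatidine 2, 1 without tomatidine 3 and 1 without control 1.

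**Figure D1:**
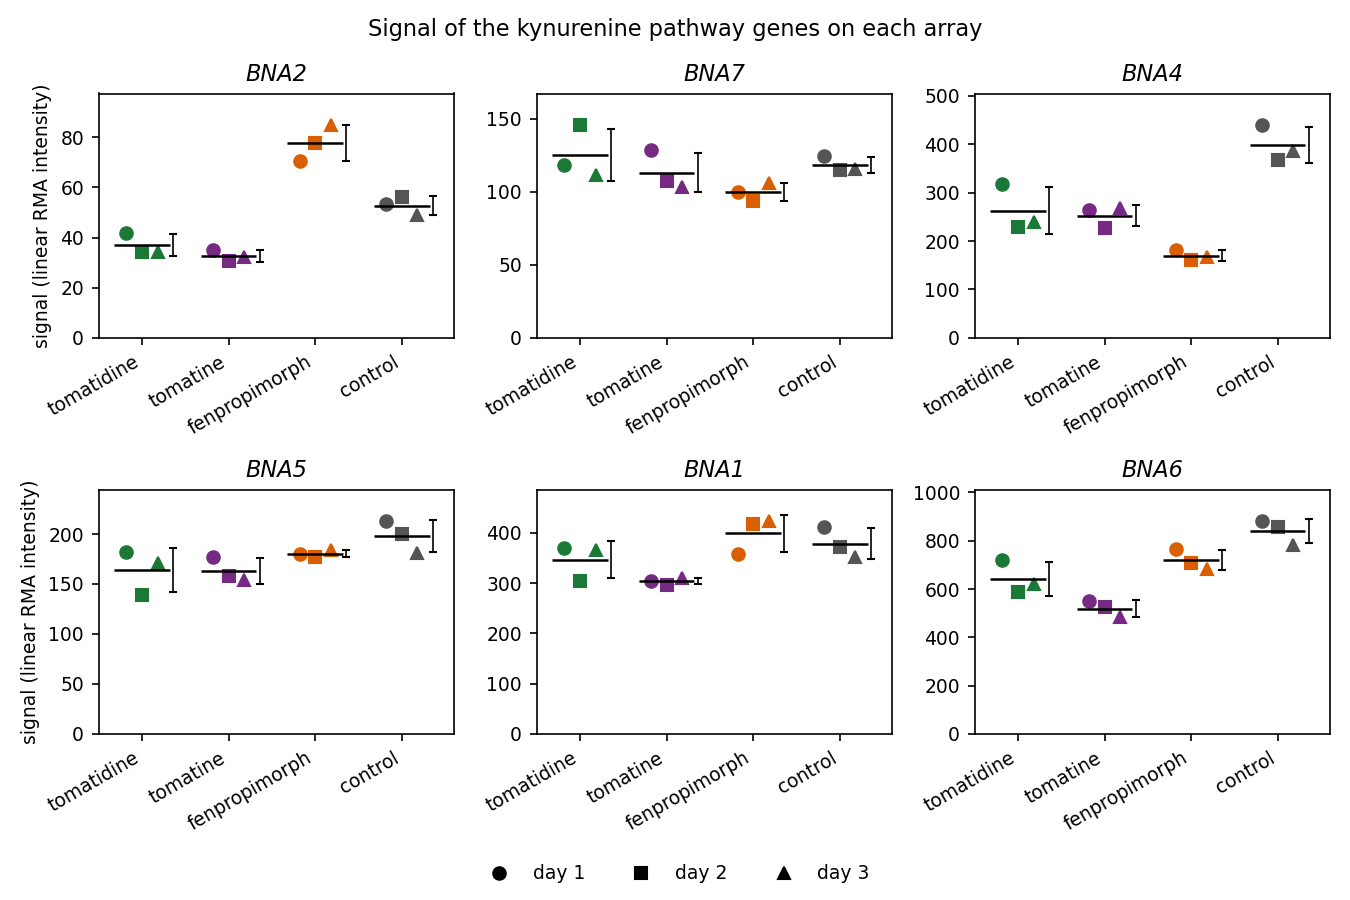
Signal of each kynurenine pathway gene (linear RMA intensity, axes from 0) on the 12 arrays by group, with circles, squares and triangles for days 1, 2 and 3, a line at the group mean and a bar of ± 1 SD (n = 3). BNA4 was highest on the 3 control arrays (367 to 439) and lowest on the 3 fenpropimorph arrays (160.0 to 182), and BNA2 was highest on the fenpropimorph arrays (70.6 to 84.7).

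BNA2 (YJR078W) encodes tryptophan dioxygenase, the entry enzyme of the pathway. Its signal was 41.9, 34.4 and 34.2 on the tomatidine arrays of days 1 to 3 and 35.1, 30.6 and 32.1 on the tomatine arrays. It was 70.6, 77.8 and 84.7 on the fenpropimorph arrays, against 53.3, 56.0 and 48.8 in control. The fenpropimorph group lay above control and both tomato compounds lay below it, and neither side overlapped with control. BNA2 was 1.43-fold lower with tomatidine (log2 difference -0.52 ± 0.0993 SE, adjusted p = 0.0109) and 1.62-fold lower with tomatine (-0.69 ± 0.0993, adjusted p = 0.00676). With fenpropimorph it rose 1.47-fold (log2 difference 0.56 ± 0.0993, adjusted p = 0.00121). By day the difference was -0.35, -0.70 and -0.51 with tomatidine, -0.60, -0.87 and -0.60 with tomatine, and 0.40, 0.47 and 0.80 with fenpropimorph. The tomatidine call was lost without tomatidine 2 (adjusted p = 0.0595). BNA2 is the dimmest of the 6 probe sets relative to its arrays, with 10 of 12 values under the array's median signal, and its signals lie within the range of the a-cell markers. How much of its signal is background was not tested.

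BNA7 (YDR428C), the kynurenine formamidase, did not pass the test with any compound. Its signals were 118, 145 and 112 with tomatidine, 128, 107 and 103 with tomatine and 99.7, 93.5 and 106 with fenpropimorph, against 124, 115 and 115 in control. The 95% interval of the log2 difference from control was -0.16 to 0.31 for tomatidine, -0.30 to 0.17 for tomatine and -0.48 to -0.01 for fenpropimorph. The fenpropimorph arrays all lay below the control arrays, with a log2 difference of -0.25 that missed the adjusted threshold (adjusted p = 0.109). It was called with array weights (adjusted p = 0.0438) and with only the 2 compared groups in the fit (adjusted p = 0.0452).

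BNA4 (YBL098W) encodes kynurenine monooxygenase, a flavoprotein of the mitochondrial outer membrane. Its signal was 318, 229 and 239 with tomatidine, and 263, 227 and 268 with tomatine. With fenpropimorph the signal was 182, 160.0 and 166, against 439, 367 and 387 in control. Every treated array was below every control array, and every fenpropimorph array was below every other array. BNA4 was 2.34-fold lower with fenpropimorph (log2 difference -1.23 ± 0.123, adjusted p = 1.26e-05), and on the 3 days the difference was -1.27, -1.20 and -1.22. This placed it at rank 25 from the lowest of 5656 genes, and it was the only member that differed from control by at least 2-fold. With tomatidine it was 1.53-fold lower (-0.61 ± 0.123, adjusted p = 0.0146) and with tomatine 1.57-fold lower (-0.65 ± 0.123, adjusted p = 0.0181). Daily differences ran from -0.47 to -0.69 with tomatidine and from -0.53 to -0.74 with tomatine. The tomatidine call was lost without tomatidine 2 (adjusted p = 0.0776), tomatidine 3 (0.054) or control 1 (0.069), and the tomatine call without tomatine 2 (0.0524) or control 1 (0.0646).

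BNA5 (YLR231C), kynureninase, had signals of 182, 139 and 171 with tomatidine, 177, 158 and 154 with tomatine and 180.4, 177 and 184 with fenpropimorph, against 213, 199.8 and 181 in control. The tomatine arrays lay just under the control arrays, whose lowest value of 181 also lay within the tomatidine and fenpropimorph ranges. The log2 difference was -0.28 with tomatidine (95% interval -0.50 to -0.05, adjusted p = 0.189), -0.28 with tomatine (-0.50 to -0.06, adjusted p = 0.16) and -0.13 with fenpropimorph (-0.35 to 0.09, adjusted p = 0.367).

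BNA1 (YJR025C), the hydroxyanthranilate dioxygenase, showed signals of 370.1, 304 and 365 with tomatidine, 305, 297 and 309 with tomatine and 357, 418 and 423 with fenpropimorph, against 412, 372 and 351 in control. The tomatine arrays were all below the control and fenpropimorph arrays, and the other treated groups overlapped with control. The difference between tomatine and control was -0.31 ± 0.0955 on the log2 scale and was not called (adjusted p = 0.0906). With 1 probe set per gene tested, it was called (adjusted p = 0.0441).

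BNA6 (YFR047C) encodes quinolinate phosphoribosyltransferase, whose product, nicotinic acid mononucleotide, is shared with the salvage route. Its signal was 720.3, 588 and 619 with tomatidine and 551, 524 and 482 with tomatine. It was 764, 708 and 684 with fenpropimorph, against 880.1, 859 and 783 in control. Control arrays were the highest and tomatine arrays the lowest, with no overlap between either group and any other. BNA6 was 1.62-fold lower with tomatine (log2 difference -0.70 ± 0.0886, adjusted p = 0.00436), at rank 36 from the lowest of 5656 genes, with -0.68, -0.71 and -0.70 on the 3 days. With tomatidine it was 1.31-fold lower (-0.39 ± 0.0886, adjusted p = 0.0286). The tomatidine call was lost without tomatidine 2 (adjusted p = 0.133), tomatidine 3 (0.0838), control 1 (0.118) or control 2 (0.0969). With fenpropimorph the log2 difference was -0.23 (95% interval -0.42 to -0.03), not called without a term for day (adjusted p = 0.0769) and called with the day as a replicate block (adjusted p = 0.0288).

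**Figure D2:**
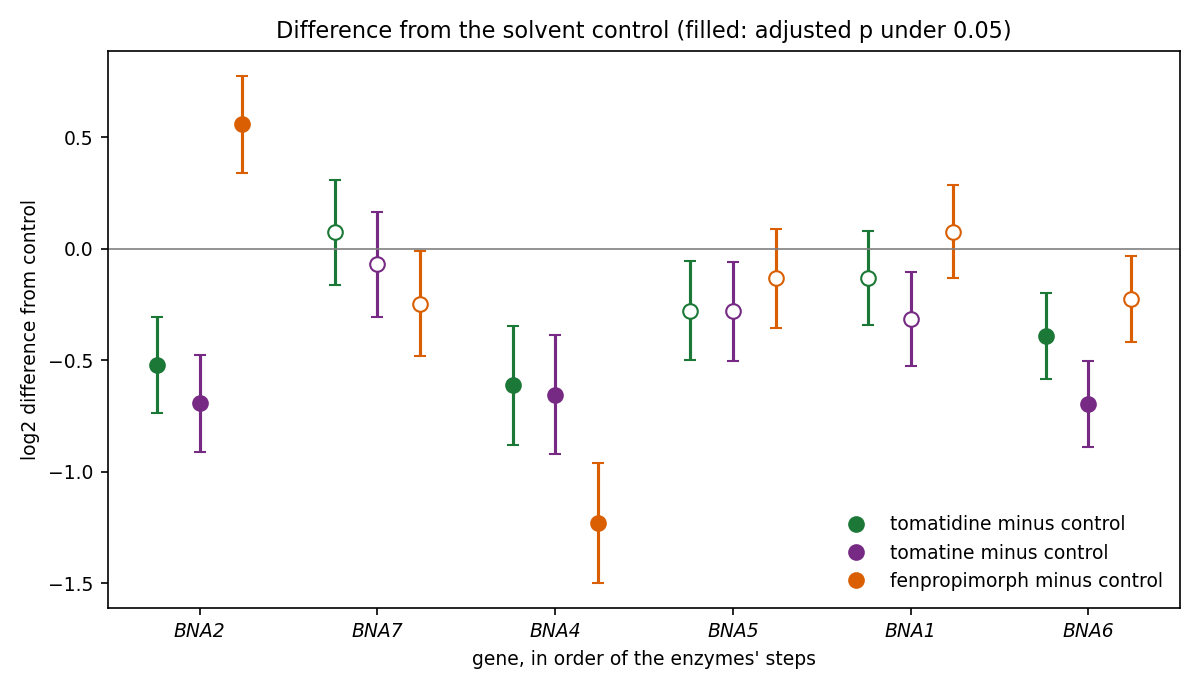
Log2 difference from control of the 6 genes, in the order of their steps, for tomatidine, tomatine and fenpropimorph, with 95% intervals from the model (3 arrays per group) and filled points where the adjusted p was under 0.05. BNA2 stands below 0 with both tomato compounds and above 0 with fenpropimorph (0.56), while BNA4 stands below 0 with all 3 compounds.

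Set against each other, tomatine and its aglycone tomatidine gave no called difference in the 6 genes, where 5.09% of all probe sets were called (2.89% lower). The 95% intervals of the log2 difference, tomatine minus tomatidine, were -0.39 to 0.05 for BNA2, -0.31 to 0.23 for BNA4 and -0.22 to 0.22 for BNA5. For BNA6 the tomatine arrays were all lower, with a log2 difference of -0.30 (95% interval -0.50 to -0.11, adjusted p = 0.0738), called with the day as a replicate block (adjusted p = 0.0311). BNA1 and BNA7 had intervals of -0.39 to 0.02 and -0.38 to 0.09. The dose of tomatine was 13.9 ppm and that of tomatidine 0.625 ppm.

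Tomatidine against fenpropimorph gave 2 members higher and 1 lower, against 17% of all probe sets called higher and 13.5% lower (30.5% in all). BNA2 was lower with tomatidine (log2 difference -1.08 ± 0.0993, adjusted p = 8.54e-06), and BNA4 was higher (0.62 ± 0.123, adjusted p = 0.0024). BNA7 was also higher (0.32 ± 0.108, adjusted p = 0.0419), a call lost with the day as a replicate block (adjusted p = 0.0556) and without any of 5 arrays, namely tomatidine 1 and 2 and fenpropimorph 1, 2 and 3 (0.0521 to 0.163). BNA1 was called lower without fenpropimorph 1 (adjusted p = 0.0494), which made 2 members lower.

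Tomatine against fenpropimorph gave 1 member higher and 3 lower, against 22.5% of all probe sets called higher and 15.9% lower (38.3% in all). BNA2 was 2.38-fold lower with tomatine (log2 difference -1.25 ± 0.0993, adjusted p = 1.43e-06). BNA6 and BNA1 were lower as well, by -0.47 ± 0.0886 and -0.39 ± 0.0955 on the log2 scale (adjusted p = 0.00121 and 0.00638), and BNA4 was higher by 0.57 ± 0.123 (adjusted p = 0.00277). None of these 4 calls was lost when any 1 array was left out.

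The 6 genes did not all vary alike. Over the 12 arrays, which share the groups and days, the Pearson correlation between log2 signals was highest for BNA2 with BNA1 (0.82) and for BNA5 with BNA6 (0.81). It was lowest for BNA2 with BNA7 (-0.49) and negative for BNA2 with BNA4 (-0.32). After each group's mean was subtracted, BNA5 and BNA6 still correlated at 0.79 and BNA2 and BNA4 at 0.48. These are descriptions of 12 arrays in 4 groups. The residual SD of the 6 genes was 0.109 to 0.166 on the log2 scale, beside a median of 0.118 for all probe sets.

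Kynurenine can also be transaminated to kynurenic acid, and the 3 genes of that branch split. ARO9, an aromatic transaminase, had signals of 193, 187 and 218 with tomatidine, 232, 245 and 199 with tomatine and 176, 186 and 179 with fenpropimorph, against 369, 346 and 315 in control. All 9 treated arrays lay below the control arrays. It fell with tomatidine (log2 difference -0.78 ± 0.0916, adjusted p = 0.000384), tomatine (-0.61 ± 0.0916, adjusted p = 0.00733) and fenpropimorph (-0.93 ± 0.0916, adjusted p = 1.16e-05). BNA3, the kynurenine aminotransferase, was 234, 238 and 246 with fenpropimorph, against 142, 143 and 141 in control. It rose 1.69-fold there (log2 difference 0.75 ± 0.0615, adjusted p = 2.35e-06), while its log2 differences were 0.09 with tomatidine and -0.10 with tomatine (adjusted p = 0.504 and 0.445). ARO8, the other aromatic transaminase, was not called with any compound (log2 differences 0.16, -0.00 and 0.05).

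Of the 14 genes of NAD salvage and the final shared steps, 1 rose and 0 fell with tomatidine, 1 rose and 1 fell with tomatine, and 4 rose and 1 (MEU1) fell with fenpropimorph. The medians of the list were 0.01, -0.02 and 0.08 on the log2 scale. Beside the counts of this list and those below, 4.44%, 4.36% and 30.3% of all probe sets were called with tomatidine, tomatine and fenpropimorph. PNC1, the nicotinamidase that starts the salvage of nicotinamide, had signals of 2575, 2932 and 2624 with fenpropimorph, against 1743, 1648 and 1455 in control. The fenpropimorph arrays lay above all others, a 1.68-fold rise (log2 difference 0.75 ± 0.0784, adjusted p = 1.91e-05). With tomatine PNC1 was 1295, 1225 and 1268, all below control (log2 difference -0.35 ± 0.0784, adjusted p = 0.0305), a call lost without tomatine 1, tomatine 2, tomatine 3, control 1 or control 2 (adjusted p from 0.0651 to 0.116). NPT1, which turns nicotinic acid into the mononucleotide that BNA6 also makes, rose 1.48-fold with fenpropimorph (log2 difference 0.57 ± 0.0827, adjusted p = 0.000272). SDT1, a nucleotidase that acts on nicotinamide mononucleotide, rose 1.45-fold with tomatidine (log2 difference 0.54 ± 0.0664, adjusted p = 0.000589) and 1.17-fold with fenpropimorph (0.23 ± 0.0664, adjusted p = 0.0209). The count of 4 with fenpropimorph was 2 without control 2, where SDT1 (adjusted p = 0.0838) and ISN1, an inosine monophosphatase (adjusted p = 0.0958), lost their calls. ISN1 also lost its call without fenpropimorph 1, fenpropimorph 2 or control 3, and SDT1 without fenpropimorph 3. The tomatine rise in this list was that of MEU1, a phosphorylase of methylthioadenosine (log2 difference 0.28 ± 0.0537, adjusted p = 0.0184), and it was lost without tomatine 2, tomatine 3 or any 1 control array. TNA1, the nicotinic acid permease, had log2 differences of 0.03, 0.05 and -0.12 with tomatidine, tomatine and fenpropimorph, none called. NMA1 and QNS1, which complete NAD from the mononucleotide, were not called against control either (log2 differences from -0.15 to 0.21).

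Among the 7 genes of the NAD-dependent deacetylases and the SUM1 complex, 0 changed with tomatidine, 1 rose with tomatine, and 1 rose and 3 fell with fenpropimorph. The repressor subunit SUM1 had log2 differences of -0.01, 0.06 and -0.10 with tomatidine, tomatine and fenpropimorph (95% intervals from -0.26 to 0.23 over all 3), and its partner RFM1 had 0.26, 0.32 and 0.21, none called. RFM1 is dim, with signals of 14.3 to 23.6 on the 12 arrays. Without control 2, it was called higher with fenpropimorph (adjusted p = 0.0439). HST1 fell slightly with fenpropimorph (log2 difference -0.17 ± 0.0594, adjusted p = 0.0442), a call lost with the day as a replicate block (adjusted p = 0.0661) and without fenpropimorph 2, fenpropimorph 3 or any control array. SIR2, the silencing deacetylase, rose with tomatine (0.34 ± 0.0586, adjusted p = 0.0124; 0.0516 without control 2) and fell with fenpropimorph (-0.19 ± 0.0586, adjusted p = 0.0254). HST2 rose and HST4 fell with fenpropimorph (0.34 ± 0.0652 and -0.32 ± 0.0828). The 3 lower genes were 1, with the calls of HST1 and SIR2 lost, without fenpropimorph 2, fenpropimorph 3, control 1 or control 3. Of the 5 NAD kinase and mitochondrial NAD carrier genes 0 changed with tomatidine and 0 with tomatine, and with fenpropimorph the carrier gene YEA6 fell (log2 difference -0.21 ± 0.0685, adjusted p = 0.0381), a call lost without fenpropimorph 2, fenpropimorph 3 or any control array. Among the NAD kinase genes, UTR1 was called higher without fenpropimorph 2 (adjusted p = 0.0412) and YEF1 without fenpropimorph 3 (adjusted p = 0.01). A gene of this list was also called higher, 1 in each case, with array weights and with single or averaged probe sets for each gene.

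Of the 9 genes of tryptophan synthesis, which supplies the substrate, 4 rose and 0 fell with tomatidine, with a median log2 difference of 0.21. ARO3, the first enzyme of the aromatic pathway, rose 1.45-fold (log2 difference 0.53 ± 0.08, adjusted p = 0.00238), and TRP3, ARO2 and TRP5 rose by 0.39 ± 0.0866, 0.28 ± 0.0696 and 0.22 ± 0.053. This count was 2 with the day as a replicate block (ARO2, adjusted p = 0.0628, and TRP5, adjusted p = 0.0592, lost their calls), and without 1 array it was 1 (tomatidine 1, tomatidine 2, control 1 or control 2) or 2 (tomatidine 3 or control 3). With tomatine 0 of 9 changed (median 0.05), and with fenpropimorph TRP5, tryptophan synthase, was the only gene called (0.26 ± 0.053, adjusted p = 0.003) and rose. With the day as a replicate block ARO4 was called lower as well (adjusted p = 0.0474), as it was without fenpropimorph 1. With 16 added before log2, a trended robust prior, or bright, single or averaged probe sets, 1 gene of the 9 was called lower with tomatine and 1 with fenpropimorph. Both tryptophan permease genes fell with fenpropimorph, TAT1 by -0.36 ± 0.0846 and TAT2 by -0.17 ± 0.0533 on the log2 scale, and neither was called with tomatidine or tomatine. The TAT2 call was lost without any 1 of the 6 arrays of that comparison (adjusted p from 0.0601 to 0.0865).

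**Figure D3:**
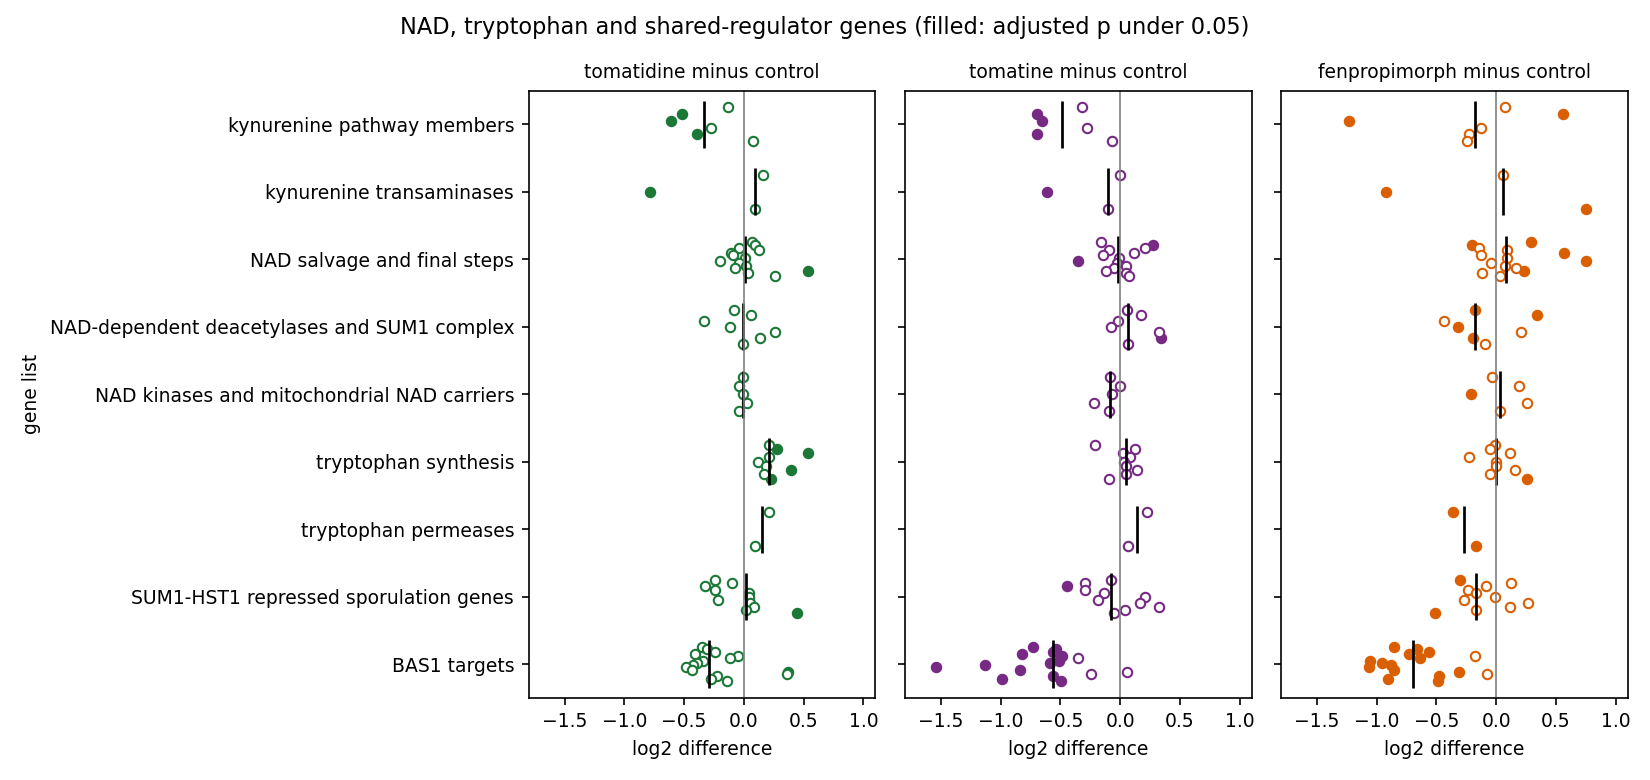
Log2 difference from control of each gene in the kynurenine pathway and 8 other lists, with tomatidine, tomatine and fenpropimorph from left to right, filled points for an adjusted p under 0.05 and a bar at the list's median. The BAS1 target list lies furthest below 0 with fenpropimorph (median -0.70) and tomatine (median -0.56).

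Other targets of the known regulators of the BNA genes were counted beside them. Of 16 measured BAS1 targets, most of which act in making purines or in folate and glycine metabolism, 13 fell and 0 rose with tomatine (median -0.56), 14 fell and 0 rose with fenpropimorph (median -0.70), and 0 fell and 1 rose with tomatidine (median -0.29). GCV2, the glycine decarboxylase subunit P, had the lowest values, at -1.54 ± 0.216 with tomatine and -1.06 ± 0.216 with fenpropimorph on the log2 scale (adjusted p = 0.00597 and 0.00284). GCV1, another subunit, had -1.13 ± 0.131 and -0.88 ± 0.131, and ADE6, of purine synthesis, had -0.51 ± 0.126 and -1.05 ± 0.126, in the same order. The ADE6 call with tomatine was lost without any 1 array of that comparison (adjusted p from 0.0583 to 0.131). This list's fall was among the results known when the lists were chosen. The tomatine count of 13 was 7 without tomatine 2 and 6 without tomatine 3, control 1, control 2 or control 3. The gene that rose with tomatidine was HIS1, of histidine synthesis (0.37 ± 0.0831, adjusted p = 0.0286), and its call was lost without tomatidine 1, tomatidine 2, control 2 or control 3. With the day as a replicate block HIS4 was called as well (adjusted p = 0.0399). Without tomatidine 1, GCV1 and a further subunit gene, GCV3, were called lower with tomatidine (adjusted p = 0.0332 and 0.00392). With quantile normalization, 16 added before log2, a trended robust prior, or bright, single or averaged probe sets, 2 BAS1 targets were called higher and 1 lower with tomatidine. Of 11 sporulation genes that the SUM1 complex represses, 9 had signals of only 3.57 to 21.0 on every array, within or under the range of the a-cell markers. How much of such a signal is background was not tested, and a gene already at background cannot show a fall. The test called 1 of the 11 higher and 0 lower with tomatidine, 0 higher and 1 lower with tomatine, and 0 higher and 2 lower with fenpropimorph (medians 0.02, -0.08 and -0.17). With bright probe sets alone it called 0 in each, but the called genes were too dim to be kept there, so that setting did not retest them. SPS4 had signals of 34.6, 37.1 and 30.7 with tomatidine and 18.8, 17.7 and 16.3 with fenpropimorph, against 26.9, 23.5 and 24.8 in control. These lay under the signals of the a-cell markers MFA1 and MFA2 and above those of the other a-cell markers. The SPS4 log2 difference was 0.44 ± 0.105 with tomatidine (adjusted p = 0.0355) and -0.51 ± 0.105 with fenpropimorph (adjusted p = 0.00315). The tomatidine call was lost with the day as a replicate block (adjusted p = 0.0524) and without tomatidine 1, tomatidine 2 or any control array. The other calls were DIT1 with tomatine (signals of 4.51 to 5.25, against 6.12 to 8.12 in control) and CDA1 with fenpropimorph (6.56 to 8.42, against 8.62 to 9.28 in control), both among the 9 dim genes. The DIT1 call was lost without any tomatine array, control 1 or control 2, and the CDA1 call with the block (adjusted p = 0.0631) and without fenpropimorph 1, fenpropimorph 3 or any control array.

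Genes whose log2 signal followed the mean of the 6 members most closely over the 12 arrays were CUP9, RTK1, ATP15, DSD1 and SDH2, with Pearson correlations of 0.92, 0.91, 0.90, 0.89 and 0.89. ATP15 and SDH2 encode subunits of ATP synthase and succinate dehydrogenase, CUP9 a transcriptional repressor and DSD1 a D-serine dehydratase. With deviations from the group means in place of the signals, the same 5 correlations were 0.69, 0.63, 0.59, 0.59 and 0.74. At the opposite end stood FCY21, NSE5, BUD23, SMM1 and SUT1, from -0.92 to -0.84. With deviations these were -0.67, -0.26, -0.84, -0.38 and -0.61. The genes at both ends were picked on these same arrays. FCY21, related to purine-cytosine permeases and dim at a mean signal of 23.6, had log2 differences of 0.46, 0.93 and 0.45 with tomatidine, tomatine and fenpropimorph. The arrays form groups, so these values describe likeness and carry no test.

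**Figure D4:**
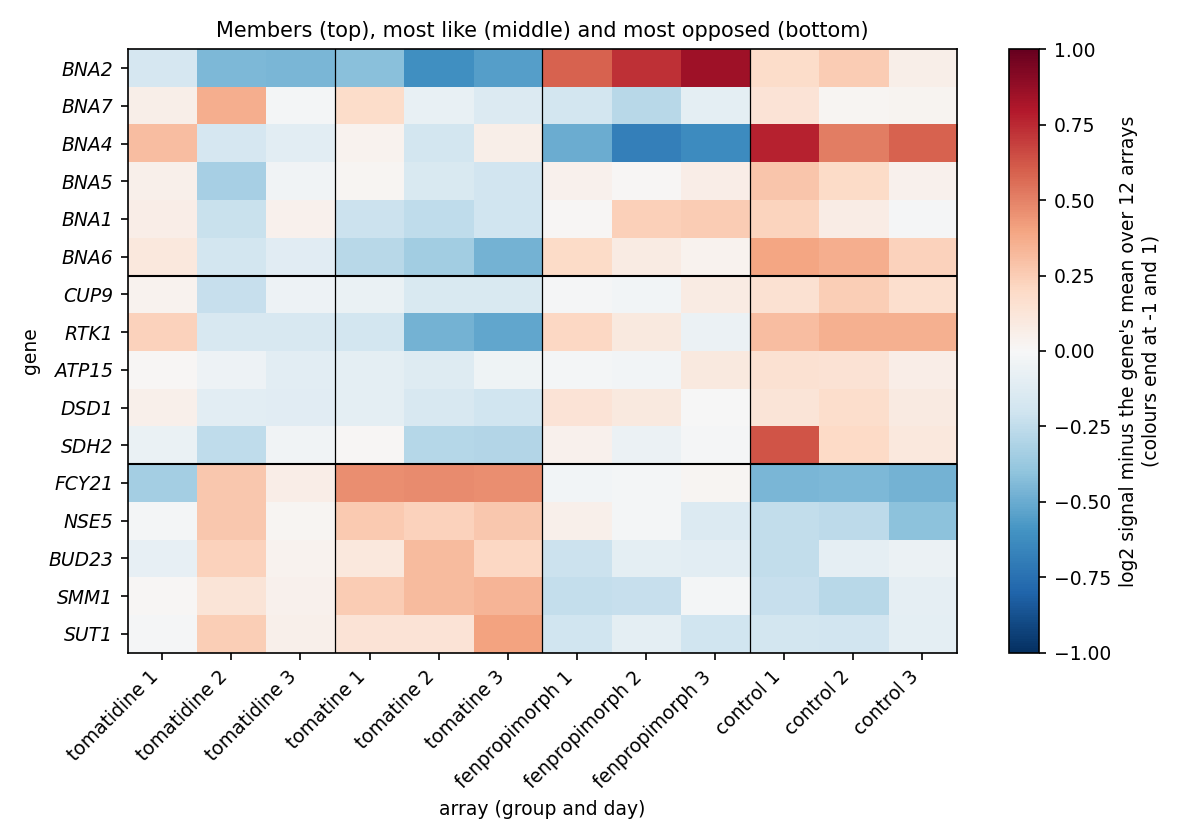
Log2 signal minus each gene's own mean, on the 12 arrays from tomatidine 1 to control 3, for the 6 members (top), the 5 genes most like their mean (middle) and the 5 most opposed (bottom), with colours ending at -1 and 1. BNA2 is high and BNA4 low on the 3 fenpropimorph arrays, and FCY21 is lowest on the control arrays.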

How the data were processed

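RNA of 12 cultures was measured on Affymetrix arrays. The authors deposited RMA intensities, 1 per probe set, per the submitters' processing notes; version and settings are not given in the sources used here. Values from 1.84 to 21252 showed a linear scale, and log2 of each was taken. Of 9335 probe sets, 60 array controls were left out. Genes were named through the platform annotation (6504 probe sets name 1 gene, and all matched the R64 gene table), with the brightest probe set per gene.

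The 4 groups were fitted with limma's lmFit and eBayes (version 3.58.1, in R 4.3.3). Its p-values, for both directions, were adjusted by Benjamini-Hochberg over the 9275 probe sets and called under 0.05. Errors after ± are standard errors, with n = 3 arrays per group. Same-numbered arrays share a day, per the labels, and so pair the groups (the block's effect is given where it changed a call); their deviations correlated at 0.0351 on average (-0.203 to 0.236, 18 pairs). In a simulation with all 9275 probe sets, 67 per compound were changed 1.5-fold, 67 2-fold and 66 4-fold. It had independent normal noise at the model's spread and no day effect. Of those changed 1.5-fold, 91% were called for tomatidine, 86.6% for tomatine and 85.1% for fenpropimorph, each against control. Fewer probe sets were changed there than were called in the data, so these shares do not give the power in these data.

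Members and lists were chosen with earlier results of these data known. Genes named were the members, genes of each list called against control, the largest of these always, and 5 genes at each end of likeness. Alternatives were a day block, normalization, weights, variance models, probe set choices, thresholds and leaving out arrays. Figures were drawn with matplotlib 3.10.9.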

Additional observations from a re-analysis of the deposited data

Results flagged for a closer look

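In 7 cases a gene was called in opposite directions against control with 2 compounds, and the direct difference between those compounds was called by limma too. That difference follows from the 2 differences from control in the same fit, so its call is not separate evidence. BNA2, the entry enzyme of the pathway, differed by -1.08 on the log2 scale between tomatidine and fenpropimorph, and by -1.25 between tomatine and fenpropimorph. PNC1, the nicotinamidase, differed by -1.10 between tomatine and fenpropimorph (log2 differences from control -0.35 and 0.75). SIR2, the silencing deacetylase, differed by 0.53 between tomatine and fenpropimorph (0.34 and -0.19), and MEU1 by 0.48 (0.28 and -0.20). Between tomatidine and fenpropimorph SPS4, a dim sporulation gene (signals of 16.3 to 37.1), differed by 0.95 (0.44 and -0.51) and HIS1, of histidine synthesis, by 0.68 (0.37 and -0.31). The directions were read from the same 3 control arrays in every case. Several of the calls against control were lost without 1 array: BNA2 with tomatidine without tomatidine 2, PNC1 with tomatine without tomatine 1, 2 or 3 or control 1 or 2, MEU1 with tomatine without tomatine 2 or 3 or any control array, SIR2 with tomatine without control 2 and with fenpropimorph without fenpropimorph 2 or 3 or control 1 or 3, SPS4 with tomatidine without tomatidine 1 or 2 or any control array, and HIS1 with tomatidine without tomatidine 1 or 2 or control 2 or 3 and with fenpropimorph without fenpropimorph 2 or 3 or control 1.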

How the results depend on the processing

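No called difference of the members in the 6 comparisons, or of the list genes against control, changed direction under the alternatives run; other named genes were not rerun. For the members, 621 of 678 alternative values stayed called or not called as reported, 40 lost and 17 gained a call. For the other list genes 3478 of 3762 stayed as reported. Differences that were not called changed sign in 9 of the member values and in 78 of the list gene values. With the day as a replicate block 1 member was called lower between tomatine and tomatidine (0 as reported), 2 were lower between fenpropimorph and control (1 as reported) and 1 was higher between tomatidine and fenpropimorph (2 as reported), and no other member call changed. With 16 added, a trended robust prior, bright probe sets, a single probe set kept for each gene or probe sets averaged by gene, 1 member was lower between tomatine and tomatidine. With quantile normalization, array weights, bright, single or averaged probe sets, or only the 2 groups, 2 were lower between fenpropimorph and control. The gene gained was BNA7 with array weights or only the 2 groups, and BNA6 in the other settings. Median centring, unmoderated statistics, 2 groups or a threshold of 0.01 left 1 higher between tomatidine and fenpropimorph. Unmoderated statistics or 2 groups left 1 lower with tomatidine against control, and a threshold of 0.01 left 0. BNA2 is not among the bright probe sets, which left 0 higher between fenpropimorph and control and 0 lower between tomatidine and fenpropimorph. At 2-fold or more 0 were higher in each comparison with fenpropimorph, 0 were lower with tomatidine or tomatine against control, and 1 was lower between tomatine and fenpropimorph. Leaving out 1 array gave 0 to 3 members lower for tomatidine against control, 2 to 3 for tomatine against control, and 1 to 2 higher and 1 to 2 lower between tomatidine and fenpropimorph. Probe sets called at 0.01 numbered 2278 for any difference, 189 for tomatidine, 45 for tomatine and 1741 for fenpropimorph against control, 205 for tomatine against tomatidine and 1843 for tomatidine against fenpropimorph. At 2-fold they numbered 53, 13 and 335 against control, 47 for tomatine against tomatidine, and 280 and 396 for tomatidine and tomatine against fenpropimorph. With 2 groups they numbered 252 for tomatidine and 121 for tomatine against control and 261 between them. For tomatine against control they were 625 with 16 added, 645 with single and 637 with averaged probe sets. Without 1 array they were 2643 to 3383 for any difference, 221 to 339 for tomatidine (412 as reported) and 83 to 276 for tomatine (404 as reported) against control, and 261 to 367 between tomatine and tomatidine (472 as reported). The causes were not tested. The test of any difference was not run at 2-fold or with 2 groups, and the promoter motifs were not run. Background was not measured, so how far dim signals such as that of BNA2 can be relied on was not tested.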

Other observations

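The genes beside each member on its chromosome, in the order of the R64 gene table, were looked up after the values were seen, and 11 of 12 were measured. With tomatidine 1 of 11 neighbours was called (lower), with tomatine 1 (lower) and with fenpropimorph 3 (1 higher, 2 lower). Of all probe sets, 4.44%, 4.36% and 30.3% were called in these comparisons. YJR079W, the reading frame next after BNA2, had log2 differences of -0.42 with tomatidine (adjusted p = 0.0976), -0.76 with tomatine (adjusted p = 0.0119) and 0.29 with fenpropimorph (adjusted p = 0.109), each with the sign of BNA2. These values are from the brighter of its 2 probe sets (28.5 to 78.1), and the dimmer one (9.23 to 15.5) gave -0.21, -0.11 and -0.14, none called. MIR1, the mitochondrial phosphate carrier gene on the other side of BNA2, had -0.30 with tomatidine (adjusted p = 0.0245), -0.05 with tomatine and -0.45 with fenpropimorph (adjusted p = 0.000313). The neighbours of BNA4, ATP1 and BRN1, had log2 differences from -0.23 to 0.18 in the 3 comparisons, none called, and those of BNA6, CNN1 and RMD8, from -0.09 to 0.06, none called.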
